A study of Mus musculus with 36 samples.

Results

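Whether a stressed cell dies through its mitochondria depends on a small family of proteins, and the transcripts of 10 genes of that decision were followed here. Of these, 7 promote death: Bbc3 (PUMA), Pmaip1 (NOXA), Bcl2l11 (BIM), Bid, Bax, Bak1 and Tnfrsf10b (death receptor 5, DR5). The other 3 protect the cell: Bcl2, Bcl2l1 (BCL-XL) and Mcl1. They were chosen by name as the central killers and survival genes of the pathway, and each was found on a single row of the count table, as 10 of 36856 gene symbols. All 10 passed the filter on low counts and were among the 16065 genes tested.

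The libraries came from mouse embryonic fibroblasts (MEF, fibroblasts cultured from mouse embryos) of 2 genotypes, labelled WT and PERK -/-. PERK, encoded by Eif2ak3, is the stress kinase that senses unfolded protein in the endoplasmic reticulum. Cells of either genotype received 1 of 6 treatments. These were DMSO as the solvent, BtdCPU, halofuginone, thapsigargin (Tg), and Tg combined with BtdCPU or with halofuginone. Every one of the 12 groups held 3 bulk RNA-seq libraries. Tg blocks the calcium pump of the endoplasmic reticulum, BtdCPU activates the kinase HRI, and halofuginone inhibits prolyl-tRNA synthetase, which activates the kinase GCN2. These kinases and PERK phosphorylate the same translation factor and so start the integrated stress response. The labels give no dose, treatment time or batch, and do not say how the lines were derived or which part of Eif2ak3 was removed. Nor do they say whether replicates were separate cultures, so p-values measure only the spread between these libraries, which may be technical. All comparisons of a genotype with DMSO share its 3 DMSO libraries, and those with Tg share its 3 Tg libraries.

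BAX and BAK are the proteins that open pores in the outer mitochondrial membrane, after which cytochrome c escapes and caspases are activated. BCL-2, BCL-XL and MCL-1 bind and restrain them. The BH3-only proteins PUMA, NOXA, BIM and BID respond to damage or stress by neutralising the survival proteins or by activating BAX and BAK directly, while DR5 is a cell surface receptor that starts caspase-8 cleavage and can feed into the mitochondria through BID. In cells with lasting endoplasmic reticulum stress, the transcription factor CHOP (Ddit3) is known to act on several of these genes, and p53 is known to activate Bbc3, Pmaip1 and Bax.

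Library totals ran from 32454261 to 37178124 estimated counts. Levels are given as CPM, counts scaled to a library of a fixed size, after scaling each library by the trimmed mean of M-values (TMM), and fold changes are on the log2 scale with their standard error (SE). A change was called where edgeR's quasi-likelihood test gave a Benjamini-Hochberg adjusted p below 0.05 over all genes tested in the comparison. Eif2ak3 was at 30.3, 32.4 and 30.7 CPM in WT DMSO libraries and at 9.37, 9.67 and 10.8 CPM in PERK -/- DMSO libraries, a difference of -1.65 (SE 0.18, adjusted p = 8.68e-09). Its level in PERK -/- libraries was also lower than in WT libraries under each of the other 5 treatments. WT BtdCPU replicate 2 stood apart from its fellows over all genes, with a chi-square per degree of freedom of 88.5 against replicate 1 and 116 against replicate 3, where those 2 gave 17.5. In other WT groups replicate 3 stood apart. With halofuginone it gave 71.8 and 77.8 against its fellows, where those gave 14.2. The values were 52.3 and 75.3 against 18.9 with halofuginone and Tg, and 51.0 and 51.7 against 15.9 with Tg. In WT DMSO and WT BtdCPU with Tg, replicates 2 and 3 lay furthest apart, at 72.1 and 79.8. The highest pair of PERK -/- libraries gave 37.9. All 10 fibroblast markers were present, their summed level running from 13851 to 39316 CPM over the libraries, and from a mean of 14468 CPM in PERK -/- cells given halofuginone with Tg to 32561 CPM in WT cells given halofuginone. The summed endothelial, epithelial and muscle markers reached at most 5.33, 23.8 and 0.648 CPM in any library. The highest sums of the immune and neural lists, 22.9 and 59.8 CPM, came mainly from Csf1r and Map2, with Ptprc never above 0.956 CPM and Cd3e at 0 throughout. The part of these shifts in the results was not tested. In bulk samples, fewer cells of a type and less RNA per cell cannot be told apart.

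Compared per kilobase of exon in WT DMSO cells, the pore formers were the most abundant of the 10 transcripts. Bax stood at 135 CPM per kilobase and Bak1 at 37.3 CPM per kilobase, ahead of the survival genes Mcl1 at 24.4 and Bcl2l1 at 18.8 CPM per kilobase. Tnfrsf10b, Bid and Bbc3 followed at 6.36, 4.39 and 2.64 CPM per kilobase. The scarcest were Bcl2l11 at 0.680, Bcl2 at 0.563 and Pmaip1 at 0.343 CPM per kilobase. Over the 12 groups, the highest group mean was 6.42 times the lowest for Bcl2l11 and 5.99 times for Bbc3, against 1.54 times for Bax and 1.69 times for Tnfrsf10b. Group means ran from 0.146 to 20.5 CPM for Pmaip1 and from 0.0996 to 6.17 CPM for Bcl2. Their lowest groups held 2 to 12 and 1 to 6 counts a library, too few for a steady ratio.

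**Figure D1:**
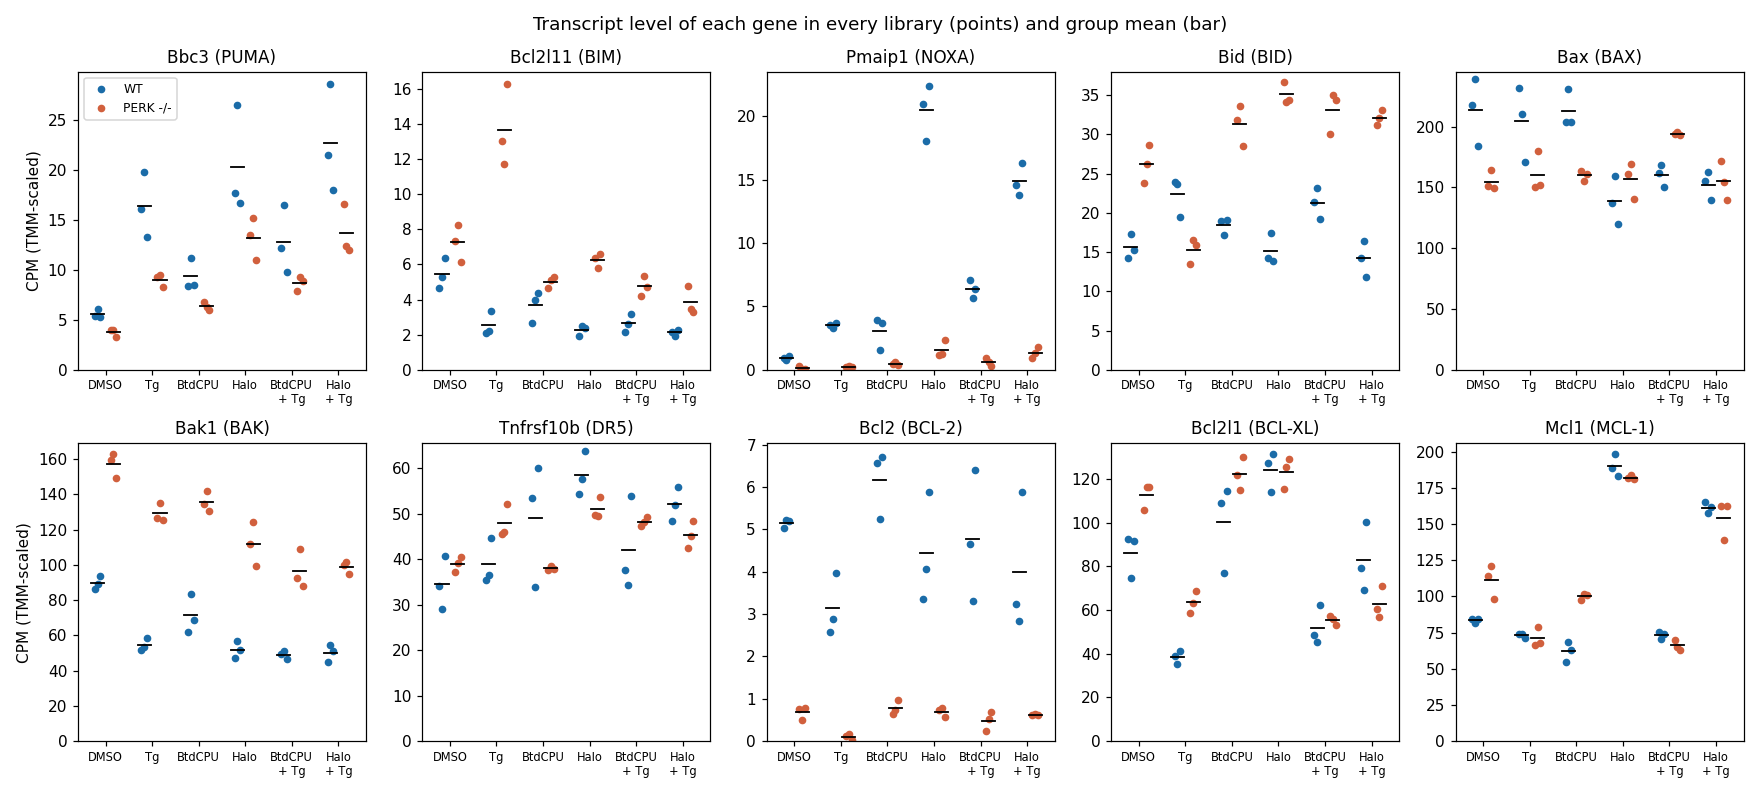
Level of each of the 10 genes in CPM (vertical axes, linear, starting at 0) in every library, by treatment (horizontal axes) and genotype (colour); points are libraries and bars the mean of 3. Pmaip1 and Bcl2 sit near 0 in all PERK -/- groups, Bcl2l11 is highest in PERK -/- cells given Tg, and Mcl1 is high in the 4 groups that received halofuginone, written Halo on the axes.

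Bbc3 and Bcl2l11 both encode BH3-only proteins, and after Tg they moved in opposite directions in WT cells. Their start regions are shown because the only matches to the FOXO site TGTTTAC among the genes' promoters lie there. The windows run from 250 bases before to 50 bases after a transcript start, in RefSeq on GRCm38.p6. Capitals mark matches on either strand to TGTTTAC, to the CCAAT box (CCAAT) and to the GC box (GGGCGG). The Bcl2l11 window is chr2:128125788-128126087 on the plus strand, and a further Bcl2l11 start is listed. The Bbc3 window is chr7:16310011-16310310 on the plus strand, 1 of 3 Bbc3 starts listed. The marked matches share no letters with each other.
Bcl2l11: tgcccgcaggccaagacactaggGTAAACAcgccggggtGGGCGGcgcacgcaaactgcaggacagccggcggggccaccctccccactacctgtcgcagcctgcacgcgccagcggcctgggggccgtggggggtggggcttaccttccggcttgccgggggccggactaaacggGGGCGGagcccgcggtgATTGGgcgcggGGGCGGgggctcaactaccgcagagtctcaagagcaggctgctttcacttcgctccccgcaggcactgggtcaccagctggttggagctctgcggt
Bbc3: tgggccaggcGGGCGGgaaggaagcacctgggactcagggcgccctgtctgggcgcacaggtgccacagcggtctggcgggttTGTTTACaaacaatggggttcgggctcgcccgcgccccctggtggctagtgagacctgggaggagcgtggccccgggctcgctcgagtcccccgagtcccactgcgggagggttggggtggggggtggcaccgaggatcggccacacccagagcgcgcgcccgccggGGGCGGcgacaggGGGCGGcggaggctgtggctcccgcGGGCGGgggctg
In the Bcl2l11 window the FOXO match is on the minus strand and so reads GTAAACA, beside 1 CCAAT box and 3 GC boxes. The window of the other Bcl2l11 start, chr2:128127325-128127624, has 0 FOXO matches, 2 CCAAT boxes and 3 GC boxes. The Bbc3 window holds 1 FOXO match and 4 GC boxes. A FOXO match of these letters was found in 3.65% of all 32851 mouse promoter windows of the same length, a CCAAT box in 37.4% and a GC box in 35.7%. RefSeq windows were found for 8 of the 10 genes, 13 in all. The C/EBP-ATF element TTGCATCA (0.895% of all windows) and the cyclic AMP response element TGACGTCA (1.79%) had no match in those 13. Pmaip1 and Tnfrsf10b had no window. A match describes letters and was not tested for binding.

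Bbc3, which encodes the p53-inducible BH3-only protein PUMA, rose with all 5 treatments in both genotypes. In WT cells its level was 5.37, 6.13 and 5.32 CPM with DMSO, 8.37, 11.2 and 8.50 CPM with BtdCPU, 16.1, 19.7 and 13.3 CPM with Tg and 17.7, 26.4 and 16.6 CPM with halofuginone. It was 12.2, 16.5 and 9.73 CPM with BtdCPU and Tg, and 21.5, 28.5 and 18.0 CPM with halofuginone and Tg. No treated library overlapped the DMSO libraries, and replicate 2 was the highest of the 3 in all 6 WT groups. The log2 changes were 0.74 (SE 0.20, adjusted p = 0.00756) for BtdCPU, 1.54 (SE 0.20, adjusted p = 1.52e-07) for Tg and 1.85 (SE 0.20, adjusted p = 1.51e-09) for halofuginone.

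PERK -/- cells started lower. Bbc3 stood at 4.02, 4.02 and 3.31 CPM with DMSO, a difference from WT of -0.57 (SE 0.21, adjusted p = 0.0236) that was no longer called without WT DMSO replicate 2 (adjusted p = 0.0827) or PERK -/- DMSO replicate 3 (0.0926). It reached 9.27, 9.46 and 8.27 CPM with Tg, 6.80, 6.31 and 5.95 CPM with BtdCPU and 13.5, 15.2 and 11.02 CPM with halofuginone. BtdCPU with Tg gave 7.92, 9.23 and 8.91 CPM and halofuginone with Tg 16.6, 12.4 and 11.9 CPM. All 15 treated libraries lay above the DMSO libraries. The changes were 1.25 (SE 0.20, adjusted p = 1.8e-05) for Tg, 0.75 (SE 0.21, adjusted p = 0.0336) for BtdCPU and 1.81 (SE 0.20, adjusted p = 1.96e-08) for halofuginone. The call for BtdCPU was lost without any one of its 6 libraries, at adjusted p of 0.0703 to 0.154. The PERK -/- response minus the WT response was -0.29 (SE 0.28) for Tg, 0.01 (SE 0.29) for BtdCPU and -0.05 (SE 0.28) for halofuginone, and none of these differences passed edgeR's test.

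Adding halofuginone to Tg raised Bbc3 above Tg alone by 0.47 (SE 0.19, adjusted p = 0.0435) in WT cells, where the 2 groups overlapped, and 0.60 (SE 0.19, adjusted p = 0.01) in PERK -/- cells. The WT call was lost without halofuginone with Tg replicate 1 or 2, or Tg replicate 1 or 3, at adjusted p of 0.0583 to 0.3, and the PERK -/- call without halofuginone with Tg replicate 1 (0.0654). Adding BtdCPU to Tg gave -0.35 (SE 0.19, adjusted p = 0.35) in WT cells. Here same-numbered WT libraries deviated together, and with the replicate number as a block the change was -0.37 at an adjusted p of 0.0312. The PERK -/- difference was -0.05 (SE 0.20, adjusted p = 0.88).

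Pmaip1 encodes NOXA, a BH3-only protein that chiefly counters MCL-1. In WT cells it gave the largest rise from DMSO of the 10 genes with every treatment. WT libraries held 0.914, 0.787 and 1.11 CPM with DMSO, 3.53, 3.27 and 3.69 CPM with Tg, 3.95, 1.53 and 3.69 CPM with BtdCPU and 21.0, 18.1 and 22.4 CPM with halofuginone. With Tg added, the level was 7.11, 5.68 and 6.35 CPM beside BtdCPU and 14.5, 13.8 and 16.3 CPM beside halofuginone. Every treated WT library was above every DMSO library, and the halofuginone libraries were the highest. BtdCPU replicate 2 held less than the other BtdCPU libraries. The rises were 1.90 (SE 0.35, adjusted p = 3.15e-05) for Tg, 1.70 (SE 0.35, adjusted p = 0.000567) for BtdCPU and 4.45 (SE 0.33, adjusted p = 1.25e-12) for halofuginone.

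In PERK -/- cells Pmaip1 was close to the limit of counting. DMSO libraries held 2 to 12 counts, at 0.328, 0.0551 and 0.0538 CPM, and the first of them stood well above the others. The difference from WT DMSO was -2.66 (SE 0.56, adjusted p = 5.15e-05), a fitted value that depends at such counts on the prior count and was -4.02 without that first library. Halofuginone brought the level to 1.16, 1.26 and 2.33 CPM, and halofuginone with Tg to 0.953, 1.31 and 1.80 CPM, so that the PERK -/- libraries with halofuginone lay near or above the WT DMSO libraries. The rise with halofuginone was 3.41 (SE 0.55, adjusted p = 6.46e-07), and that with halofuginone and Tg was 3.19 (SE 0.55, adjusted p = 2.08e-06). Tg alone gave 0.190, 0.300 and 0.187 CPM, a difference of 0.62 (SE 0.65, adjusted p = 0.521) from DMSO with overlapping groups, which ran from 0.19 to 1.98 leaving out 1 library. For BtdCPU, at 0.428, 0.607 and 0.380 CPM, the difference of 1.68 (SE 0.59, adjusted p = 0.0914) was not called, while without the first DMSO library it was 3.04 with an adjusted p of 0.0145. The genotypes' responses of Pmaip1 differed by -1.28 (SE 0.73) for Tg and by -1.03 (SE 0.64) for halofuginone, and neither difference passed the test at these counts. Their direction rested on the first PERK -/- DMSO library. Leaving out 1 library, the Tg value ran from -1.66 to 0.085 and the halofuginone value from -1.41 to 0.34, with the highest value of each coming without that library.

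Added to Tg, halofuginone raised Pmaip1 further in both genotypes. Halofuginone with Tg exceeded Tg alone by 2.09 (SE 0.29, adjusted p = 1.33e-06) in WT cells and by 2.57 (SE 0.48, adjusted p = 1.13e-05) in PERK -/- cells, in each case without overlap. BtdCPU with Tg, at 0.936, 0.626 and 0.270 CPM, exceeded Tg by 1.43 (SE 0.51, adjusted p = 0.0216) in PERK -/- cells, where the groups overlapped and the call was lost without BtdCPU with Tg replicate 1 (0.166) or Tg replicate 1 or 3 (0.0711 and 0.0672). In WT cells that difference was 0.87 (SE 0.30, adjusted p = 0.116), and 0.86 at an adjusted p of 0.0225 with the replicate block.

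Bcl2l11 encodes BIM, a BH3-only protein that can bind all the survival proteins and activate BAX, and its response to Tg ran in opposite directions in the 2 genotypes. In WT cells it fell from 4.69, 5.31 and 6.38 CPM with DMSO to 2.10, 2.21 and 3.33 CPM with Tg. In PERK -/- cells it rose from 7.35, 8.26 and 6.16 CPM with DMSO to 13.0, 11.7 and 16.3 CPM with Tg. The groups did not overlap in either genotype, and the 3 PERK -/- Tg libraries were the highest of all 36. The changes were -1.09 (SE 0.20, adjusted p = 4.08e-05) and 0.91 (SE 0.19, adjusted p = 0.000352), and the responses differed by 2.01 (SE 0.27, adjusted p = 7.37e-07).

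The other compounds lowered Bcl2l11 in WT cells. Halofuginone gave 1.92, 2.49 and 2.37 CPM, BtdCPU 2.67, 3.996 and 4.36 CPM, BtdCPU with Tg 2.14, 2.62 and 3.19 CPM and halofuginone with Tg 2.16, 1.95 and 2.27 CPM. All 12 of these libraries lay below the DMSO libraries. The log2 change was -1.27 (SE 0.20, adjusted p = 2.34e-06) for halofuginone and -0.57 (SE 0.20, adjusted p = 0.0369) for BtdCPU, the latter lost without BtdCPU replicate 1 or DMSO replicate 2 or 3, at adjusted p of 0.0731 to 0.259. In PERK -/- cells halofuginone alone gave 6.37, 5.79 and 6.61 CPM and BtdCPU alone 4.68, 5.10 and 5.27 CPM, differences of -0.21 (SE 0.19, adjusted p = 0.391) and -0.53 (SE 0.19, adjusted p = 0.135) from DMSO. The halofuginone response differed between genotypes by 1.05 (SE 0.28, adjusted p = 0.00375).

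Given together with Tg, each compound left PERK -/- Bcl2l11 below its DMSO level rather than above it. The level was 4.20, 5.36 and 4.73 CPM with BtdCPU and Tg, and 4.79, 3.49 and 3.31 CPM with halofuginone and Tg. Against Tg alone the changes were -1.52 (SE 0.19, adjusted p = 2.41e-07) and -1.82 (SE 0.19, adjusted p = 2.61e-09). Against DMSO the values were -0.61 (SE 0.19, adjusted p = 0.015) and -0.91 (SE 0.19, adjusted p = 0.000272), the first lost without BtdCPU with Tg replicate 1 (0.0703) or DMSO replicate 2 (0.0842). Without WT DMSO replicate 3 or PERK -/- DMSO replicate 3, Bcl2l11 was also called higher in PERK -/- than WT DMSO cells (0.0421 and 0.0497), where all libraries gave 0.41 (SE 0.19, adjusted p = 0.075). In WT cells the same additions to Tg gave 0.06 (SE 0.21, adjusted p = 0.926) and -0.26 (SE 0.21, adjusted p = 0.326). The genotypes differed in both additions, by -1.57 (SE 0.28, adjusted p = 0.000115) and -1.56 (SE 0.28, adjusted p = 7.25e-05).

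Bid encodes the BH3-only protein that caspase-8 cleaves, the link from death receptors to mitochondria, and it too crossed over with Tg. WT cells rose from 14.3, 17.3 and 15.2 CPM with DMSO to 23.9, 23.7 and 19.5 CPM with Tg, while PERK -/- cells fell from 23.8, 26.2 and 28.6 CPM to 13.5, 16.6 and 15.9 CPM. Neither pair of groups overlapped. The changes were 0.52 (SE 0.12, adjusted p = 0.000631) and -0.77 (SE 0.12, adjusted p = 7.44e-06), and the responses differed by -1.29 (SE 0.17, adjusted p = 3.27e-07). Without Tg, PERK -/- cells held more Bid than WT cells, by 0.75 (SE 0.12, adjusted p = 4.19e-06). Halofuginone gave 14.3, 17.4 and 13.8 CPM in WT cells and 36.7, 34.1 and 34.4 CPM in PERK -/- cells, changes of -0.04 (SE 0.12, adjusted p = 0.791) and 0.42 (SE 0.12, adjusted p = 0.0043). These differed by 0.46 (SE 0.17, adjusted p = 0.0334), a call lost without WT halofuginone replicate 3, WT DMSO replicate 2, or PERK -/- DMSO replicate 1 or 2 (adjusted p of 0.0522 to 0.103). BtdCPU gave 19.0, 17.2 and 19.1 CPM and 31.8, 33.6 and 28.5 CPM, both overlapping DMSO, at 0.24 and 0.26.

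Each compound given with Tg took PERK -/- Bid back above DMSO. With BtdCPU and Tg it was 30.0, 35.0 and 34.4 CPM, and with halofuginone and Tg 31.1, 32.1 and 33.1 CPM, increases over Tg alone of 1.11 (SE 0.12, adjusted p = 1.37e-08) and 1.07 (SE 0.12, adjusted p = 6.5e-09). In WT cells adding halofuginone to Tg lowered Bid to 14.3, 16.4 and 11.9 CPM, a change of -0.65 (SE 0.12, adjusted p = 4.72e-05), and adding BtdCPU gave 21.4, 23.1 and 19.2 CPM, a difference of -0.07 (SE 0.12, adjusted p = 0.807). The genotype differences in these additions were 1.18 (SE 0.17, adjusted p = 5.13e-06) for BtdCPU and 1.72 (SE 0.17, adjusted p = 4.74e-09) for halofuginone. Above DMSO, the rise was 0.34 (SE 0.12, adjusted p = 0.0268) with BtdCPU and Tg, lost without BtdCPU with Tg replicate 2 or 3, or DMSO replicate 1 or 2 (adjusted p of 0.0672 to 0.136). It was 0.29 (SE 0.12, adjusted p = 0.0406) with halofuginone and Tg, lost without halofuginone with Tg replicate 1, 2 or 3, or DMSO replicate 1 or 2 (adjusted p of 0.0694 to 0.18).

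Bid shares 628 exon bases with Bcl2l13 on the opposite strand in GENCODE M21, and the sources used here do not say whether counting used strand. Reads of the 2 genes can therefore not be told apart there. Bcl2l13 itself was at 61.0, 60.4 and 65.6 CPM in PERK -/- DMSO libraries and 59.5, 63.5 and 59.8 CPM with Tg, a difference of -0.03 (SE 0.092, adjusted p = 0.855), where Bid fell. With halofuginone in WT cells Bcl2l13 rose by 1.23 (SE 0.093, adjusted p = 8.2e-13), where Bid gave -0.04. Added to Tg in WT cells, halofuginone raised Bcl2l13 by 0.77 (SE 0.093, adjusted p = 6.38e-08), where Bid fell. In some other comparisons the 2 genes moved the same way. Bcl2l13 was higher in PERK -/- than WT DMSO cells by 0.83 (SE 0.093, adjusted p = 7.25e-09), as Bid was. With Tg in WT cells it rose by 0.22 (SE 0.094, adjusted p = 0.0475), where Bid also rose. The part of shared reads in the Bid values was not tested.

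Bax and Bak1 encode the pore formers themselves. Over the 12 groups the highest group mean was 1.54 times the lowest for Bax, and 3.21 times for Bak1. Bax was at 217, 239 and 184 CPM in WT DMSO libraries, 232, 211 and 171 CPM with Tg, 204, 231 and 204 CPM with BtdCPU and 137, 159 and 120.3 CPM with halofuginone. Only the halofuginone libraries of these lay wholly below DMSO, a change of -0.62 (SE 0.11, adjusted p = 1.29e-05). The Tg and BtdCPU differences were -0.06 (SE 0.11, adjusted p = 0.668) and -0.0037 (SE 0.11, adjusted p = 0.998). PERK -/- DMSO libraries, at 151, 164 and 149 CPM, were below WT at a difference of -0.46 (SE 0.11, adjusted p = 0.000872). They gave 150.1, 179.7 and 152 CPM with Tg, 164, 155 and 161 CPM with BtdCPU and 161, 169 and 141 CPM with halofuginone, all overlapping DMSO. For halofuginone the difference was 0.02 (SE 0.11, adjusted p = 0.919). The halofuginone response differed between genotypes by 0.64 (SE 0.16, adjusted p = 0.00201).

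With Tg present, the response of Bax to added BtdCPU also differed between the genotypes. Halofuginone with Tg gave 155, 163 and 139 CPM in WT cells, below Tg alone at a change of -0.42 (SE 0.11, adjusted p = 0.00235), and 171, 154 and 139 CPM in PERK -/- cells, at -0.05 (SE 0.11, adjusted p = 0.741). The difference between these, 0.37 (SE 0.16, adjusted p = 0.0676), was called only without WT Tg replicate 3 (0.0161), PERK -/- halofuginone with Tg replicate 3 (0.0237) or PERK -/- Tg replicate 2 (0.0171). BtdCPU with Tg gave 161, 168 and 150.4 CPM in WT cells and 194, 196 and 193 CPM in PERK -/- cells. Against Tg these were -0.35 (SE 0.11, adjusted p = 0.0844) and 0.28 (SE 0.11, adjusted p = 0.0531), and the difference of 0.63 (SE 0.16, adjusted p = 0.00412) between them was called. With the replicate block the WT value was -0.35 at an adjusted p of 0.00249, and without WT Tg replicate 3 it was -0.47 (0.0422). The PERK -/- value was 0.41 (0.0125) without Tg replicate 2.

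Every called change of Bak1 from DMSO was a fall, in both genotypes. WT libraries held 86.4, 89.2 and 93.6 CPM with DMSO, 51.8, 53.4 and 58.6 CPM with Tg, 61.9, 83.5 and 68.9 CPM with BtdCPU and 47.3, 56.7 and 51.7 CPM with halofuginone. All 9 treated libraries were below DMSO. The changes were -0.72 (SE 0.10, adjusted p = 7.16e-07) for Tg, -0.33 (SE 0.10, adjusted p = 0.0177) for BtdCPU and -0.79 (SE 0.10, adjusted p = 4.45e-08) for halofuginone, of which the BtdCPU call was lost without BtdCPU replicate 1 or 3 or DMSO replicate 3 (adjusted p of 0.0556 to 0.17). PERK -/- DMSO libraries held 159.6, 163 and 149 CPM, 0.81 (SE 0.10, adjusted p = 5.46e-08) above WT. They gave 127, 135 and 126 CPM with Tg, 134, 142 and 131 CPM with BtdCPU and 112, 124 and 99.3 CPM with halofuginone, all below DMSO. The PERK -/- changes were -0.28 (SE 0.10, adjusted p = 0.0323), -0.21 (SE 0.10, adjusted p = 0.311) and -0.49 (SE 0.10, adjusted p = 0.000172), and the Tg call was lost without Tg replicate 1 or 3, or DMSO replicate 1 or 2 (adjusted p of 0.0569 to 0.106).

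The fall of Bak1 with Tg was smaller in PERK -/- cells, at a difference of 0.43 (SE 0.14, adjusted p = 0.0159). With halofuginone that difference was 0.30 (SE 0.14, adjusted p = 0.105), called only without PERK -/- halofuginone replicate 3 (0.0214). Adding BtdCPU or halofuginone to Tg lowered Bak1 further there, to 92.5, 109 and 87.8 CPM and 99.9, 102 and 94.9 CPM, changes of -0.42 (SE 0.10, adjusted p = 0.00131) and -0.39 (SE 0.10, adjusted p = 0.00164). In WT cells the same additions gave 49.7, 51.0 and 46.3 CPM and 44.7, 54.7 and 51.3 CPM, differences of -0.16 (SE 0.10) and -0.12 (SE 0.10) that were not called. Every PERK -/- library of Bak1, from 87.8 CPM up, was above every WT library given Tg or halofuginone. Ggnbp1 overlaps 614 exon bases of Bak1 on the opposite strand and reached at most 3.02 CPM in any library. Bax shares 192 exon bases with Gm45808 on the same strand, and Bcl2 558 with the antisense gene D630008O14Rik on the opposite strand. Neither Gm45808 nor D630008O14Rik is among the symbols counted, so their levels could not be checked.

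Tnfrsf10b encodes DR5, a receptor for the ligand TRAIL that is known as a CHOP target in stressed cells. Its range was narrow, from a mean of 34.6 CPM in WT DMSO cells to 58.6 CPM in WT halofuginone cells. WT libraries held 34.1, 29.1 and 40.7 CPM with DMSO, 35.5, 36.6 and 44.7 CPM with Tg, 53.4, 33.8 and 60.1 CPM with BtdCPU and 54.3, 57.7 and 63.8 CPM with halofuginone. The halofuginone libraries were clear of DMSO, the Tg and BtdCPU libraries overlapped it, and BtdCPU replicate 2 lay far below its fellows. Halofuginone raised it by 0.76 (SE 0.15, adjusted p = 5.12e-05) and BtdCPU by 0.50 (SE 0.15, adjusted p = 0.0148), the latter lost without BtdCPU replicate 1 or 3, or DMSO replicate 1 or 2 (adjusted p of 0.0506 to 0.18). Tg gave 0.17 (SE 0.15, adjusted p = 0.371). BtdCPU with Tg gave 37.6, 34.3 and 54.0 CPM and halofuginone with Tg 48.4, 52.0 and 55.9 CPM. Only the latter was clear of DMSO and called, at 0.59 (SE 0.15, adjusted p = 0.00102). The former, 0.28 (SE 0.15, adjusted p = 0.123), was called without BtdCPU with Tg replicate 2 (0.0373) or DMSO replicate 3 (0.0414).

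In PERK -/- cells DR5 transcripts were at 37.2, 39.1 and 40.4 CPM with DMSO, 45.5, 45.9 and 52.2 CPM with Tg, 37.6, 38.6 and 37.8 CPM with BtdCPU and 49.7, 49.5 and 53.8 CPM with halofuginone. Tg libraries were all above DMSO, yet the difference of 0.30 (SE 0.15, adjusted p = 0.14) was not called with the spread shared over all groups. Fitted on the compared groups alone it was 0.26 at an adjusted p of 0.0281. The rise with halofuginone, 0.39 (SE 0.15, adjusted p = 0.035), was lost without any one of its 6 libraries (adjusted p of 0.0505 to 0.103). With halofuginone added, WT libraries exceeded Tg alone by 0.42 (SE 0.15, adjusted p = 0.0223), a call lost without halofuginone with Tg replicate 3 or Tg replicate 1 or 2 (adjusted p of 0.0856 to 0.101). PERK -/- libraries gave -0.08 (SE 0.15, adjusted p = 0.692) in the same comparison. The genotypes' responses of Tnfrsf10b differed by -0.54 (SE 0.21, adjusted p = 0.367) for BtdCPU and -0.50 (SE 0.21, adjusted p = 0.0706) for halofuginone added to Tg, and none of the 5 such differences was called. Without WT BtdCPU replicate 2 the former was -0.75 (0.0141), and without WT Tg replicate 3 the latter was -0.61 (0.0341).

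Bcl2, the founding survival gene of the family, was lower in every PERK -/- library than in every WT library. WT DMSO libraries held 5.03, 5.23 and 5.20 CPM and PERK -/- DMSO libraries 0.765, 0.496 and 0.780 CPM, a difference of -2.91 (SE 0.32, adjusted p = 4.85e-09). No PERK -/- library exceeded 0.977 CPM in any group and no WT library was below 2.57 CPM. With Tg, PERK -/- libraries fell to 0.108, 0.164 and 0.0267 CPM, which is 1 to 6 counts each, and WT libraries to 2.57, 2.89 and 3.97 CPM. The changes were -2.74 (SE 0.55, adjusted p = 5.18e-05) and -0.71 (SE 0.28, adjusted p = 0.0372), and the responses differed by -2.03 (SE 0.62, adjusted p = 0.00543). The WT call was lost without Tg replicate 1 or 2, or DMSO replicate 1, 2 or 3 (adjusted p of 0.0641 to 0.135). At 1 to 6 counts the fitted PERK -/- value depends on the prior count.

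With BtdCPU or halofuginone alone Bcl2 was not called in either genotype. WT libraries held 6.56, 5.24 and 6.70 CPM with BtdCPU, all above DMSO, and 3.34, 4.07 and 5.89 CPM with halofuginone, and PERK -/- libraries 0.642, 0.739 and 0.977 CPM and 0.728, 0.769 and 0.576 CPM. Their differences from DMSO were 0.26 (SE 0.28) and -0.22 (SE 0.28) in WT cells, and 0.21 (SE 0.35) and 0.02 (SE 0.36) in PERK -/- cells. Given with Tg, they left Bcl2 well above Tg alone in PERK -/- cells, at 0.241, 0.517 and 0.675 CPM with BtdCPU and 0.609, 0.627 and 0.609 CPM with halofuginone. These rises over Tg were 2.23 (SE 0.56, adjusted p = 0.000848) and 2.59 (SE 0.56, adjusted p = 4.31e-05), and both groups were clear of the Tg libraries. WT cells held 4.64, 3.30 and 6.41 CPM and 3.23, 2.83 and 5.89 CPM, at 0.60 (SE 0.28, adjusted p = 0.263) and 0.34 (SE 0.28, adjusted p = 0.344) from Tg, with overlapping groups. Against DMSO, WT halofuginone with Tg gave -0.37 (SE 0.28, adjusted p = 0.244), called only without its replicate 3 (0.0251). The genotype difference was 2.25 (SE 0.62, adjusted p = 0.00279) for added halofuginone. For added BtdCPU it was 1.62 (SE 0.63, adjusted p = 0.0475), lost without WT BtdCPU with Tg replicate 1 or 2, WT Tg replicate 3, PERK -/- BtdCPU with Tg replicate 2 or 3, or PERK -/- Tg replicate 1 or 3 (adjusted p of 0.0591 to 0.176).

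Bcl2l1 encodes BCL-XL and is read here over all its isoforms. Tg lowered it in both genotypes, from 92.3, 74.4 and 91.7 to 38.8, 35.4 and 41.2 CPM in WT libraries and from 106, 116 and 116 to 58.6, 63.3 and 68.5 CPM in PERK -/- libraries. The groups did not overlap, and the changes of -1.16 (SE 0.13, adjusted p = 1.97e-08) and -0.83 (SE 0.13, adjusted p = 1.34e-05) differed by 0.34 (SE 0.19, adjusted p = 0.164), which was not called. Halofuginone alone raised it in WT cells to 127, 114 and 132 CPM, by 0.53 (SE 0.13, adjusted p = 0.000809), and gave 115, 125 and 129 CPM in PERK -/- cells, a difference of 0.13 (SE 0.13, adjusted p = 0.466). BtdCPU alone gave 109, 77.1 and 115 CPM in WT and 122, 115 and 130.0 CPM in PERK -/- cells. The WT difference of 0.22 (SE 0.13, adjusted p = 0.253) was called without BtdCPU replicate 2 (0.0268). The genotypes parted when a compound was added to Tg. Halofuginone brought WT libraries back to 79.0, 69.3 and 100.1 CPM, 1.11 (SE 0.13, adjusted p = 7.09e-08) above Tg, while PERK -/- libraries stood at 60.3, 56.7 and 70.9 CPM, a difference from Tg of -0.02 (SE 0.13, adjusted p = 0.929).

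The genotype difference in this addition was -1.13 (SE 0.19, adjusted p = 2.18e-05). For BtdCPU it was -0.63 (SE 0.19, adjusted p = 0.0159), from 48.6, 45.2 and 62.1 CPM in WT libraries and 57.2, 55.8 and 53.2 CPM in PERK -/- libraries. This second call was lost without WT BtdCPU with Tg replicate 3, WT Tg replicate 2, PERK -/- BtdCPU with Tg replicate 3, or PERK -/- Tg replicate 3 (adjusted p of 0.059 to 0.111). Against Tg, BtdCPU gave 0.43 (SE 0.13, adjusted p = 0.0774) in WT cells, or 0.42 at an adjusted p of 0.000951 with the replicate block, and -0.20 (SE 0.13, adjusted p = 0.268) in PERK -/- cells. In DMSO PERK -/- cells held more Bcl2l1 by 0.39 (SE 0.13, adjusted p = 0.0155), a call lost without WT DMSO replicate 2 (0.103) or PERK -/- DMSO replicate 3 (0.0522).

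Mcl1 encodes a short-lived survival protein, and halofuginone raised its transcript in both genotypes, with and without Tg. Its start region, the only one RefSeq lists for the gene here, is shown because halofuginone raised both Mcl1 and Pmaip1, whose product binds MCL-1. With BtdCPU in WT cells Pmaip1 rose and Mcl1 fell, and over the 12 group means the r of the pair was 0.359. The window is chr3:95658471-95658770 on the plus strand of GRCm38.p6, and its single GC box, on the minus strand, is in capitals.
Mcl1: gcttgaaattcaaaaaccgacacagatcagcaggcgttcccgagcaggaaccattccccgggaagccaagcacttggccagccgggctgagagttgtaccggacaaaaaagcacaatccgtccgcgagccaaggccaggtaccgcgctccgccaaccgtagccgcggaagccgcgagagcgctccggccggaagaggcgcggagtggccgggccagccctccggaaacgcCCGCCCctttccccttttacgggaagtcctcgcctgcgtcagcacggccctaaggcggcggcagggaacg
WT libraries held 84.5, 81.3 and 84.6 CPM with DMSO and 188, 199 and 183 CPM with halofuginone. PERK -/- libraries held 114, 121 and 98.3 CPM and 182, 184 and 181 CPM. All halofuginone libraries of both genotypes were above every library without it. The rises were 1.19 (SE 0.085, adjusted p = 2.18e-13) and 0.71 (SE 0.085, adjusted p = 5.17e-08), and they differed by -0.48 (SE 0.12, adjusted p = 0.0024). With Tg present, halofuginone libraries held 165, 157 and 162 CPM in WT and 162, 139 and 162 CPM in PERK -/- cells. It raised Mcl1 above Tg by 1.14 (SE 0.085, adjusted p = 6.9e-12) in WT and 1.12 (SE 0.085, adjusted p = 2.41e-12) in PERK -/- cells, and these differed by -0.02 (SE 0.12, adjusted p = 0.928).

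Tg and BtdCPU moved Mcl1 the other way where they were called. Tg gave 73.7, 73.8 and 71.4 CPM in WT libraries, -0.19 (SE 0.085, adjusted p = 0.0605), and 66.5, 78.6 and 67.6 CPM in PERK -/- libraries, -0.65 (SE 0.085, adjusted p = 5.21e-07), with a genotype difference of -0.46 (SE 0.12, adjusted p = 0.003). Both Tg groups were clear of their DMSO libraries. The WT difference was called by DESeq2 (adjusted p = 0.0328) and, by edgeR, without Tg replicate 2 (0.0409). BtdCPU lowered it in WT cells to 54.4, 68.8 and 62.8 CPM, a change of -0.43 (SE 0.085, adjusted p = 0.000452), and gave 97.8, 102 and 101 CPM in PERK -/- cells, -0.15 (SE 0.085, adjusted p = 0.413). BtdCPU with Tg gave 75.1, 70.3 and 74.0 CPM in WT and 70.1, 65.2 and 63.0 CPM in PERK -/- cells, at 0.0029 (SE 0.085) and -0.10 (SE 0.085) from Tg, neither called. Against DMSO the WT value was -0.19 (SE 0.085, adjusted p = 0.0594), called without BtdCPU with Tg replicate 1 (0.0242) or 3 (0.0345).

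**Figure D2:**
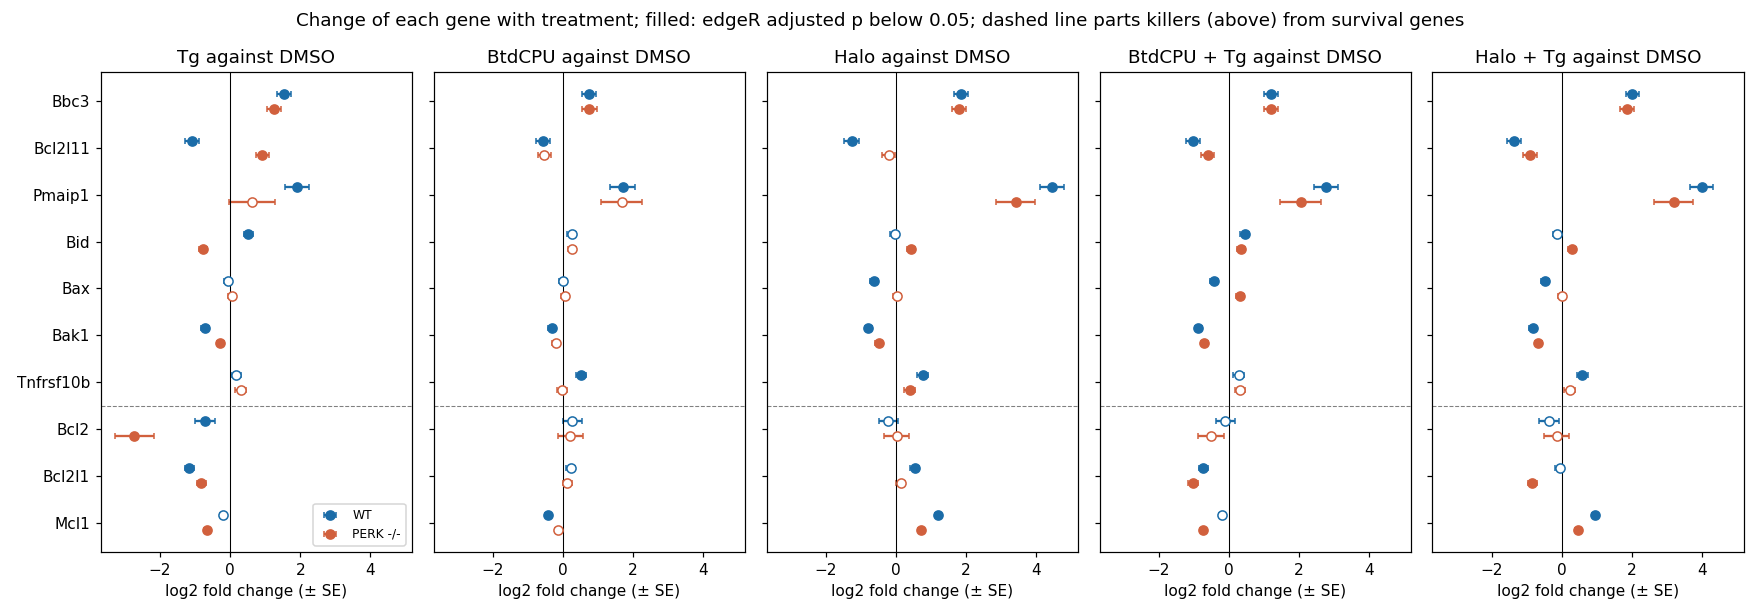
Log2 fold change against the DMSO libraries of the same genotype (horizontal axis, bars 1 SE) for the 10 genes in 5 treatments; filled points have an edgeR adjusted p below 0.05 and the dashed line parts the 7 killers from the 3 survival genes. Bbc3 is filled to the right in all 5 panels for both genotypes, and Bcl2l11 and Bid lie on opposite sides for the genotypes with Tg alone.

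Set side by side, the compounds produced different mixtures of killers and survival genes. Tg in WT cells raised Bbc3, Pmaip1 and Bid and lowered Bcl2l11, Bak1, Bcl2 and Bcl2l1. That is 3 of 10 genes higher and 4 lower, where 24.9% and 22.7% of all tested genes were (47.6% changed). The median log2 change of the 10 was -0.13, beside 0.015 over all genes. Given to PERK -/- cells, Tg raised Bbc3 and Bcl2l11 and lowered Bid, Bak1, Bcl2, Bcl2l1 and Mcl1, so 2 were higher and 5 lower, against 15.2% and 12.7% of all genes (27.9% changed). The median there was -0.12, beside 0.046. The genotypes' responses to Tg differed for 5 genes, 2 upward in PERK -/- relative to WT (Bcl2l11 and Bak1) and 3 downward (Bid, Bcl2 and Mcl1), where 19.5% and 18.6% of all genes did (38.1% in all).

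Of the single treatments in WT cells, halofuginone had the most of the 10 genes called and also the largest share of all genes. It raised Bbc3, Pmaip1, Tnfrsf10b, Bcl2l1 and Mcl1 and lowered Bcl2l11, Bax and Bak1. That is 5 and 3 of 10, with 34.7% and 33.5% of all genes (68.1% changed), so the count is near the share of all genes. The PERK -/- cells showed 5 rises, in Bbc3, Pmaip1, Bid, Tnfrsf10b and Mcl1, and Bak1 fell, with 21.2% and 21.0% of all genes (42.2% changed). The medians were 0.24 and 0.26, beside 0.0039 and 0 over all genes. The halofuginone responses differed for 4 genes. Bcl2l11, Bid and Bax were higher in PERK -/- relative to WT and Mcl1 was lower, where 17.5% and 17.5% of all genes were (35.0% in all).

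BtdCPU alone had a smaller reach. In WT cells it raised Bbc3, Pmaip1 and Tnfrsf10b and lowered Bcl2l11, Bak1 and Mcl1, with 12.9% of all genes higher and 9.32% lower (22.2% changed). Replicate 2, the library of this group that stood apart over all genes, held less of the stress genes, with Ddit3 at 156, 70.9 and 133 CPM and Trib3 at 313, 147 and 277 CPM in the 3 libraries. Without replicate 2 the count of the 10 called went from 6 to 7, with Bcl2l1 added. Without replicate 1 it was 3, and fitted on the compared groups alone it was 2. Of the 10, 1 was called in PERK -/- cells, Bbc3, with 3.59% of all genes changed (2.55% higher and 1.04% lower), and 5 of 10 had an unadjusted p below 0.05. The genotypes' BtdCPU responses differed for 0 of 10 genes by edgeR, with 0.199% of all genes called, 2 of 10 at an unadjusted p below 0.05, and 0 by DESeq2.

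Combined with Tg and set against DMSO, BtdCPU gave 3 genes higher and 4 lower in WT cells, with 28.0% and 24.5% of all genes (52.5% changed). The higher ones were Bbc3 (1.19), Pmaip1 (2.77) and Bid (0.45), and the lower ones Bcl2l11 (-1.04), Bax (-0.42), Bak1 (-0.87) and Bcl2l1 (-0.73). With PERK -/- cells 4 were higher, Bbc3 (1.199), Pmaip1 (2.05), Bid and Bax (0.33), and 4 lower, Bcl2l11, Bak1 (-0.71), Bcl2l1 (-1.02) and Mcl1 (-0.75), with 16.8% and 14.6% of all genes (31.4% changed). The rise of Bax there was lost without BtdCPU with Tg replicate 1, 2 or 3, or DMSO replicate 1 or 3 (adjusted p of 0.0613 to 0.0838). Scaled by library size alone, neither Bax (adjusted p = 0.0643) nor Bid (0.0597) was called.

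Halofuginone with Tg, against DMSO, raised 4 and lowered 3 genes in WT cells, with 34.3% and 31.4% of all genes (65.7% changed). Bbc3 (2.01), Pmaip1 (3.99), Tnfrsf10b (0.59) and Mcl1 (0.95) rose, while Bcl2l11 (-1.36), Bax (-0.49) and Bak1 (-0.84) fell. It raised in PERK -/- cells Bbc3 (1.85), Pmaip1, Bid and Mcl1 (0.47) and lowered Bcl2l11, Bak1 (-0.67) and Bcl2l1 (-0.85), with 22.9% higher and 22.2% lower over all genes (45.1% changed).

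Against Tg alone, adding BtdCPU in WT cells left 0 of 10 genes called by edgeR, with 2.32% of all genes called (1.29% higher and 1.02% lower), 4 at an unadjusted p below 0.05 and 2 called by DESeq2. With the replicate block, 4 were called, Bbc3 and Bax lower and Pmaip1 and Bcl2l1 higher. Both the block and DESeq2 called more of all genes too, so 2.32% is not the share beside those counts. Their numbers over all genes are given with the dependence on the processing. The same addition changed 5 genes in PERK -/- cells. Pmaip1, Bid and Bcl2 rose and Bcl2l11 and Bak1 fell, with 17.3% and 18.3% of all genes (35.6% changed). Adding halofuginone to Tg changed 7 genes in WT cells, 5 higher (Bbc3, Pmaip1, Tnfrsf10b, Bcl2l1 and Mcl1) and 2 lower (Bid and Bax), with 22.8% and 22.5% of all genes (45.3% changed). The count in PERK -/- cells was 7 genes, Bbc3, Pmaip1, Bid, Bcl2 and Mcl1 higher and Bcl2l11 and Bak1 lower, with 25.2% and 27.5% of all genes (52.7% changed).

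The responses to an added compound differed between genotypes for 5 genes with BtdCPU and 4 with halofuginone. For BtdCPU, Bid, Bax and Bcl2 were higher and Bcl2l11 and Bcl2l1 lower in PERK -/- relative to WT, where 10.7% and 10.1% of all genes were (20.8% in all). For halofuginone, Bid and Bcl2 were higher and Bcl2l11 and Bcl2l1 lower, where 15.9% and 16.9% of all genes were (32.7% in all). In DMSO alone 8 genes differed between genotypes. Bid, Bak1, Bcl2l1 and Mcl1 were higher and Bbc3, Pmaip1, Bax and Bcl2 lower in PERK -/- cells, with 24.6% and 24.9% of all genes (49.5% in all).

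**Figure D3:**
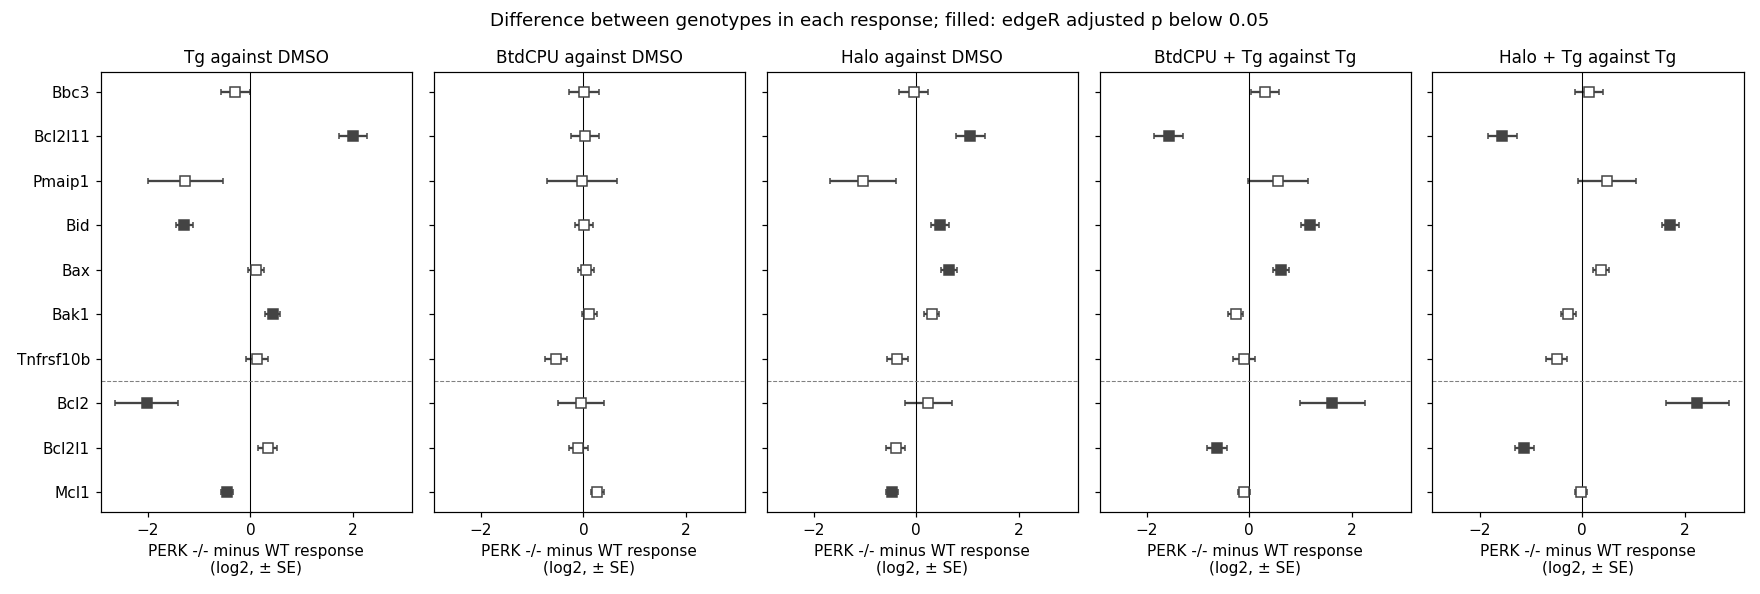
PERK -/- response minus WT response on the log2 scale (horizontal axis, bars 1 SE) for the 10 genes in 5 contrasts; filled squares have an edgeR adjusted p below 0.05. Bcl2l11 lies at 2.01 for Tg against DMSO and at -1.57 and -1.56 for a compound added to Tg, and Bid at -1.29, 1.18 and 1.72 in the same panels.

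As a plain summary of the 10 values, the mean log2 CPM (prior count 2) of the 7 killers minus that of the 3 survival genes was taken in each library, less its mean in the DMSO libraries of the genotype. It is a description without a test, since its members were chosen with results known. The balance was 1.00 ± 0.114 (SD, n = 3) with Tg in WT cells and 1.58 ± 0.227 in PERK -/- cells, and its DMSO libraries spread by 0.0828 and 0.145 (SD). The WT Tg libraries lay at 1.06, 1.08 and 0.873 and the PERK -/- Tg libraries at 1.503, 1.40 and 1.83, so the groups did not overlap. The killers' mean stood at 0.310 and 0.309. The survival genes' mean stood at -0.693 in WT and -1.27 in PERK -/- cells, the latter including Bcl2 at 1 to 6 counts. Without Bcl2 the PERK -/- value was 1.05.

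The other groups lay lower on this scale. Halofuginone gave 0.119 ± 0.185 in WT cells and 0.441 ± 0.0731 in PERK -/- cells, with the killers' mean up by 0.608 and 0.734 and the survival mean up by 0.488 and 0.293. BtdCPU gave 0.290 ± 0.0428 and 0.218 ± 0.176. BtdCPU with Tg gave 0.683 ± 0.263 and 1.16 ± 0.254, and halofuginone with Tg 0.382 ± 0.334 and 0.705 ± 0.0733. The WT Tg libraries overlapped only those of BtdCPU with Tg, and the PERK -/- Tg libraries overlapped no other group of their genotype. Single genes set the sign of the lower values. Without Pmaip1 the balance turned to -0.509 for halofuginone and -0.183 for halofuginone with Tg in WT cells, and to -0.00850 for BtdCPU in PERK -/- cells.

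**Figure D4:**
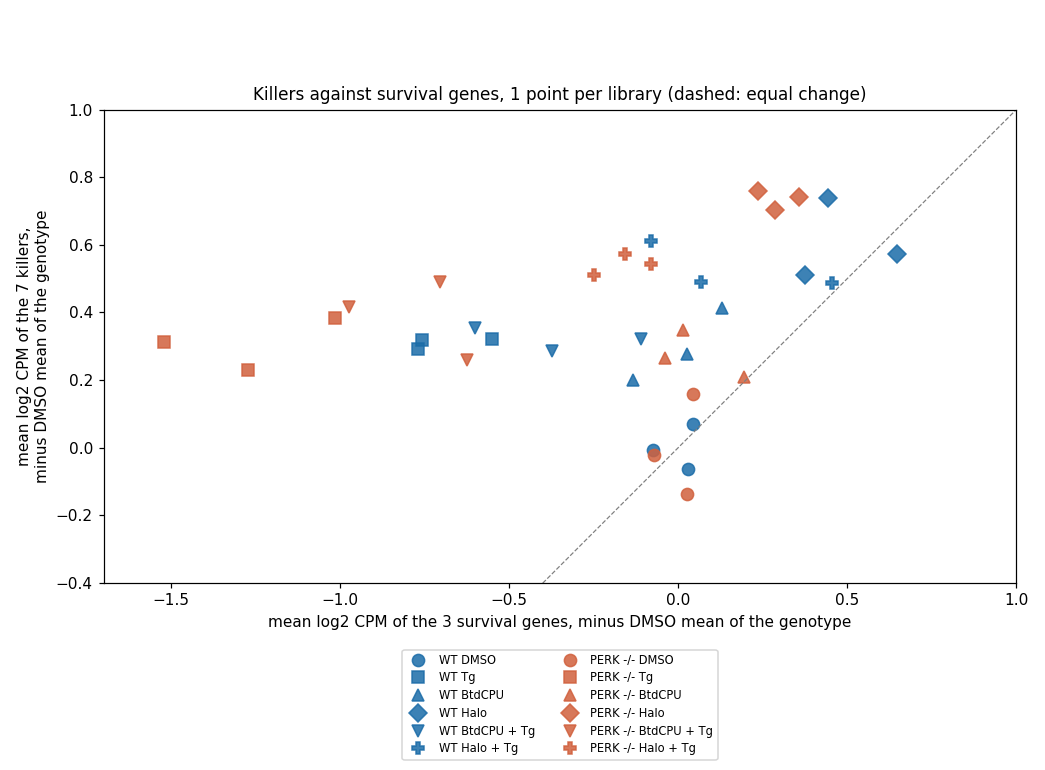
Mean log2 change of the 7 killers (vertical axis) against that of the 3 survival genes (horizontal axis) in every library, each relative to the DMSO mean of its genotype; the dashed line marks equal change. Libraries given Tg alone lie to the left, at survival means of -0.771 to -0.551 in WT and -1.52 to -1.02 in PERK -/- cells, while halofuginone libraries lie to the upper right.

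Among genes known to act upstream of the family, Ddit3 (CHOP) rose with Tg by 4.66 (SE 0.21) in WT and 1.203 (SE 0.21) in PERK -/- cells, a difference of -3.46 (SE 0.29, adjusted p = 1.89e-10). Adding BtdCPU to Tg raised Ddit3 in PERK -/- cells by 3.05 (SE 0.20), and adding halofuginone by 2.18 (SE 0.20). Cdkn1a and Mdm2, both p53 targets, were lower in PERK -/- than WT DMSO cells, at -3.61 (SE 0.15) and -1.34 (SE 0.13). Halofuginone raised Cdkn1a by 1.40 (SE 0.14) in WT and 2.30 (SE 0.15) in PERK -/- cells. Mdm2 went the other way between genotypes, with the larger rise in WT cells. Its mean went from 88.6 to 323 CPM in WT and from 35.0 to 59.0 CPM in PERK -/- cells. These responses of Mdm2 differed by -1.11 (SE 0.19, adjusted p = 2.97e-05). Of the 12 upstream genes tested, 8 were higher and 2 lower with Tg in WT cells and 5 and 2 in PERK -/- cells, with medians of 0.82 and 0.26. Of all tested genes, 24.9% and 22.7% were in WT cells, and 15.2% and 12.7% in PERK -/- cells. Their part in the changes of the 10 genes was not tested. Foxo1, whose factor binds the FOXO site, was higher in PERK -/- DMSO cells by 1.59 (SE 0.27, adjusted p = 1.18e-05) and fell with halofuginone in WT cells, at -1.57 (SE 0.32, adjusted p = 6.09e-05).

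Trp53, the p53 gene, was at 284, 252 and 336 CPM in WT DMSO libraries and 40.8, 36.2 and 39.3 CPM in PERK -/- DMSO libraries, a difference of -2.91 (SE 0.089). Its values other than those for halofuginone with Tg in WT cells and the genotype difference for halofuginone were chosen after they were seen. In WT cells it fell to 98.4, 114 and 107 CPM with halofuginone, at -1.45 (SE 0.088), and with halofuginone and Tg, at -1.15 (SE 0.088). In PERK -/- cells it rose by 0.29 (SE 0.09) and 0.63 (SE 0.089) with the same treatments. The halofuginone responses differed by 1.75 (SE 0.13, adjusted p = 2.97e-11). The part of the Trp53 level in the levels of Bbc3, Pmaip1 and Bax was not tested.

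Among the remaining family members, 5 of 10 could be tested. With Tg, halofuginone or either combination in WT cells, 3 of 5 were lower in each and 0 higher by edgeR, the same 3 at an unadjusted p below 0.05, where 22.7%, 33.5%, 24.5% and 31.4% of all genes were lower. These 3 were Bad, Bmf and Bok. Bok, a BAX-like effector, fell with Tg and with halofuginone and Tg, at -2.07 (SE 0.15) and -2.64 (SE 0.15) in WT cells and at -0.97 (SE 0.14) and -1.46 (SE 0.14) in PERK -/- cells. Its Tg responses differed by 1.10 (SE 0.20, adjusted p = 5.53e-05). Against Tg alone in PERK -/- cells Bad, a BH3-only gene, fell, at -0.63 (SE 0.17) with BtdCPU and -0.65 (SE 0.17) with halofuginone added.

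Bmf and Bik, also BH3-only genes, lay below the mean level used to choose the genes described from each list, and were added after their values were seen. Bmf moved in opposite directions with Tg in the 2 genotypes. In WT cells, at 3 to 47 counts a library, it fell from 1.11, 1.32 and 0.464 CPM to 0.0928, 0.270 and 0.222 CPM, at -2.28 (SE 0.65, adjusted p = 0.00308), and in PERK -/- cells it rose from 0.519, 0.441 and 1.05 CPM to 6.85, 6.76 and 8.86 CPM, by 3.48 (SE 0.50, adjusted p = 5.48e-06). The responses differed by 5.75 (SE 0.82, adjusted p = 9.8e-07), the largest value of the 5 genes in that comparison. Against Tg alone in PERK -/- cells Bmf fell, at -3.96 (SE 0.52) with BtdCPU and -5.36 (SE 0.63) with halofuginone added. Bik held at most 16 counts in any library, and rose with Tg in PERK -/- cells by 2.20 (SE 0.83, adjusted p = 0.0313). With Tg in PERK -/- cells 2 of the 5 were thus higher and 1 lower, where 15.2% and 12.7% of all genes were. Hrk, Bcl2l10 and the 3 Bcl2a1 genes had at most 2 counts in any library and were not tested.

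On the death receptor side, 12 of 15 genes were tested. With Tg in WT cells 3 were higher and 6 lower, where 24.9% and 22.7% of all genes were. The largest called changes were those of Fas, the receptor for Fas ligand, at 1.60 (SE 0.32) and Tnfrsf22, a decoy receptor for TRAIL, at -1.14 (SE 0.26). With Tg in PERK -/- cells 1 was called, where 27.9% of all genes were, namely Tnfrsf21 (death receptor 6), which fell (at -1.46) and rose again by 1.78 (SE 0.18) with BtdCPU and 1.55 (SE 0.18) with halofuginone added. Cflar, an inhibitor of caspase-8, rose by 1.76 (SE 0.19) with halofuginone in WT cells, where 4 of 12 were higher and 5 lower, beside 34.7% and 33.5% of all genes. The ligand genes Tnfsf10 (TRAIL), Fasl and Tnf reached at most 6, 8 and 7 counts in any library and were not tested.

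Downstream of the mitochondria, all 13 genes were tested. In WT cells 1 was higher and 7 lower with Tg, and 3 and 7 with halofuginone, with medians of -0.28 and -0.32. Of all genes, 24.9% and 22.7% were with Tg, and 34.7% and 33.5% (68.1% in all) with halofuginone, so the 10 of 13 called there is near the share of all genes. Casp6, an executioner caspase, fell in these comparisons, at -1.89 (SE 0.18) and -3.74 (SE 0.20). With Tg in PERK -/- cells 3 were higher and 3 lower, beside 15.2% and 12.7% of all genes, with Apaf1, the scaffold that assembles caspase-9, up by 0.89 (SE 0.12). Casp9 fell, at -2.66 (SE 0.22), when halofuginone was added to Tg in these cells. Of the 5 inhibitor of apoptosis genes, 2 were higher and 2 lower with Tg in WT cells, against the same 24.9% and 22.7%. Birc3 (cIAP2) was the highest of them at 1.48 (SE 0.15) and reached 2.18 (SE 0.15) with halofuginone and Tg, while Birc5 (survivin) fell, at -0.75 (SE 0.11).

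The genes whose 12 group means followed each of the 10 most closely were found by Pearson's r on log2 CPM over 11500 genes with a mean above 1 on that scale. Pmaip1 was most like Ttc39c (r = 0.992), Bak1 like Cenpb (0.990), Mcl1 like Gtf2h3 (0.988) and Bcl2 like Eif2d (0.975). Bid was most like Fam195a (0.973), Bbc3 like Dapk3 (0.970), Bcl2l11 like Ppp6r1 (0.954), Bcl2l1 like Rab31 (0.947), Tnfrsf10b like Ccdc50 (0.946) and Bax like Gnb2l1 (0.932). Each r rests on 12 means that share libraries and 2 genotypes. Among the 10 themselves, Pmaip1 and Bak1 ran most opposite (r = -0.931), Bcl2l11 and Bak1 ran together (0.873), and so did Bbc3 and Pmaip1 (0.848).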

How the data were processed

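RNA-seq of 36 libraries in 12 groups of 3 was used as estimated counts per gene in a table that the authors deposited. The submitters' processing notes name GRCm39 and DESeq; the aligner, the counter and the use of strand are not given in the sources used here. The deposited expected counts hold 0.025 where a gene has none (50.6% of values), and fractions occur in 2.69% of the rest. Values were rounded, 27 entries named only by a number (0.206 to 0.278% of counts) were left out, and 39 symbols on 86 entries were summed, leaving 36856 symbols.

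Genes were filtered with filterByExpr by group, scaled by TMM and fitted with edgeR 4.0.16 (limma 3.58.1, R 4.3.3) as 12 group means over all 36 libraries, with robust quasi-likelihood dispersions (common dispersion 0.0199, 24 residual degrees of freedom). P-values were Benjamini-Hochberg adjusted over 16065 genes in each of 20 comparisons. SEs come from the fitted weights and quasi-dispersion. Alternatives were DESeq2 1.42.0, RLE scaling, library size, no filter (28052 genes), a fit on the compared groups, a replicate block and each library left out. On data simulated for Tg against DMSO in WT cells (14600 genes), 44.8% of genes changed 1.5-fold, 83.3% of those changed 2-fold and 98.4% of those changed 4-fold were called, and 7 unchanged genes were.

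The deviations of same-numbered libraries correlated at over 0.1 in all 3 pairs only for BtdCPU with Tg against Tg (0.159 to 0.337) and halofuginone with Tg against Tg (0.162 to 0.308), both in WT cells, so the blocked value stands beside those results where it changes a call. In WT comparisons with DMSO, replicates 2 and 3 correlated at 0.151 to 0.286 and replicate 1 at 0.0412 to 0.0681. Libraries also correlated best with their own number for BtdCPU, halofuginone and halofuginone with Tg against DMSO in WT cells. The same held in PERK -/- cells for Tg against DMSO and BtdCPU with Tg against Tg. The main fit holds no replicate term. All 10 genes were named in every comparison. Outside them the rule named fixed readouts, the most changed gene called in each direction of each pathway list, and the genes most like each of the 10. A result for 1 gene that this rule named is not reported here. The 10 genes and the lists were chosen with earlier results of these data known. Exon lengths and overlaps are from GENCODE M21 and promoter windows from RefSeq.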

Additional observations from a re-analysis of the deposited data

Results flagged for a closer look

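The values here are differences between the genotypes in the same response, PERK -/- minus WT on the log2 scale, that passed edgeR's quasi-likelihood test after Benjamini-Hochberg adjustment over all genes. For Tg against DMSO, 5 of the 10 genes differed in this way, where 38.1% of all genes differed. Bcl2l11 was at 2.01, Bak1 at 0.43, Bid at -1.29, Bcl2 at -2.03 and Mcl1 at -0.46. Bcl2l11 and Bid moved significantly in opposite directions in the 2 genotypes, while Bak1 and Bcl2 fell in both by different amounts. The edgeR call of the Bcl2 fall in WT cells was lost on leaving out some single libraries (adjusted p of 0.0641 to 0.135). So was that of the Bak1 fall in PERK -/- cells (0.0569 to 0.106).

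For halofuginone against DMSO, Bcl2l11 was at 1.05, Bax at 0.64, Bid at 0.46 and Mcl1 at -0.48, where 35.0% of all genes differed. The edgeR call of Bid was lost on leaving out some single libraries (adjusted p of 0.0522 to 0.103). Mcl1 rose in both genotypes, and rose more in WT cells.

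For BtdCPU added to Tg, Bcl2 was at 1.62, Bid at 1.18, Bax at 0.63, Bcl2l1 at -0.63 and Bcl2l11 at -1.57, where 20.8% of all genes differed. The edgeR calls of Bcl2 and Bcl2l1 there were lost on leaving out some single libraries. Their adjusted p was then 0.0591 to 0.176 for Bcl2 and 0.059 to 0.111 for Bcl2l1. For halofuginone added to Tg, Bcl2 was at 2.25, Bid at 1.72, Bcl2l1 at -1.13 and Bcl2l11 at -1.56, where 32.7% of all genes differed. Bcl2 in PERK -/- cells given Tg rests on 1 to 6 counts a library. Each of these differences and those for Tg share the Tg libraries of both genotypes, and what sets the genotypes apart was not tested. The labels do not say how the lines were derived. Loss of PERK and other differences between the lines can therefore not be told apart here.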

How the results depend on the processing

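No called log2 fold change of the 10 genes changed sign under any alternative run, over 20 comparisons. Of 200 gene results, 198 kept their side of the threshold with DESeq2's size factors (RLE) in place of TMM, 193 with DESeq2, 190 with library size as the only scaling, 188 without the filter on low counts, 184 of 198 in a fit on the compared groups (Pmaip1 for Tg and Bcl2 for BtdCPU added to Tg, both in PERK -/- cells, gave no value there) and 178 with a replicate block within genotype, which added 22 calls and removed 0. Scaling by library size moved the median of all genes from 0.0039 to -0.11 for halofuginone in WT cells and from 0.0014 to 0.11 for the genotype difference in that response, and no gene's direction among the 10 that were called there turned. Leaving out 1 library, 1405 results were unchanged in call, 77 lost and 18 gained one. Low counts limit Pmaip1 and Bcl2 in PERK -/- cells. The cause of the changes listed next was not tested.

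Counts of the 10 genes called that moved were these. For BtdCPU in WT cells the count of 6 became 2 in the fit on the compared groups, and 3 to 7 leaving out 1 library. For BtdCPU added to Tg in WT cells the count of 0 became 1 with library size, 2 without the filter, 2 with DESeq2, 4 with the replicate block and 0 to 1 leaving out 1 library. For BtdCPU in PERK -/- cells the count of 1 became 0 with library size, 2 without the filter, in the fit on the compared groups, with DESeq2 and with the replicate block, and 0 to 1 leaving out 1 library. Between genotypes, the block gave 1 for BtdCPU in place of 0, 7 for halofuginone in place of 4 and 7 for halofuginone added to Tg in place of 4. Leaving out 1 library gave 0 to 1 for BtdCPU and 3 to 5 for BtdCPU added to Tg. Without the block, 35.0% of all genes were called between genotypes for halofuginone and 32.7% for halofuginone added to Tg. Their shares with the block are not reported here, so the counts of 7 cannot be set against them. Outside the 2 WT comparisons with Tg named in the methods, the same-numbered libraries did not all deviate together, so the block is a hint there and not the design. In WT comparisons with DMSO, replicates 2 and 3 did so and replicate 1 hardly.

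Over all genes, the number called for BtdCPU in WT cells was 3570, and 835 in the fit on the compared groups and 5536 with the block. For BtdCPU added to Tg in WT cells it was 372, and 804 without the filter, 2079 with the block, 23 in the fit on the compared groups and 899 with DESeq2. For BtdCPU in PERK -/- cells it was 577, and 1577 with the block, 1265 in the fit on the compared groups and 880 with DESeq2. For the genotype difference in BtdCPU it was 32, and 311, 587, 2 and 161 in the order without filter, block, compared groups and DESeq2.

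The balance of killers and survival genes depended on single genes. Leaving out a survival gene was chosen after seeing the data. For BtdCPU in WT cells, 0.290 became 0.218 without Bbc3, 0.436 without Bcl2l11, 0.0814 without Pmaip1, 0.339 without Bax, 0.396 without Bak1, 0.411 without Bcl2, 0.389 without Bcl2l1 and 0.0695 without Mcl1, and 0.243 to 0.323 leaving out 1 library. For BtdCPU with Tg in WT cells, 0.683 became 0.286 without Pmaip1. For halofuginone in WT cells, 0.119 became -0.0820 without Bbc3, 0.428 without Bcl2l11, -0.509 without Pmaip1, 0.324 without Bax, 0.353 without Bak1, -0.251 without Bcl2 and 0.468 without Mcl1. With halofuginone and Tg in WT cells, 0.382 became -0.183 without Pmaip1 and 0.783 without Mcl1. For Tg in WT cells, 1.00 became 0.802 without Bbc3, 1.24 without Bcl2l11, 0.748 without Pmaip1, 1.18 without Bak1, 0.771 without Bcl2l1 and 1.25 without Mcl1.

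In PERK -/- cells, BtdCPU at 0.218 became -0.00850 without Pmaip1. Halofuginone at 0.441 became 0.266 without Bbc3, 0.598 without Bcl2l11, 0.0257 without Pmaip1, 0.561 without Bax, 0.647 without Bak1, 0.313 without Bcl2, 0.358 without Bcl2l1 and 0.652 without Mcl1, and 0.360 to 0.498 leaving out 1 library. Halofuginone with Tg at 0.705 became 0.491 without Bbc3, 0.946 without Bcl2l11, 0.289 without Pmaip1, 0.795 without Bax, 0.907 without Bak1, 0.360 without Bcl2l1 and 1.02 without Mcl1, and 0.623 to 0.761 leaving out 1 library. Tg at 1.58 became 1.05 without Bcl2 and 1.89 without Mcl1.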
